A study of Mus musculus with 6 samples.

Results

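White and brown adipocyte genes in the thyroid gland are described here: a set of 36 genes fixed by name, comprising adipokines, lipid droplet proteins, fatty acid handling proteins, triglyceride enzymes, lipolysis genes, their transcription factors and thermogenic genes. All 36 symbols were found among the 21878 genes of the deposited count table. All 36 also passed the filter on low counts, which left 14143 genes for testing. No measured level entered the rule, but the set was chosen with earlier results of these data known.

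Whole thyroid glands were collected for RNA sequencing from female mice at 12 weeks of age, with 3 libraries per group, and the comparison asked which transcripts depend on *Tet1*, the gene of a 5-methylcytosine dioxygenase. The libraries labelled *Thy-Tet1-/-* came from mice made by crossing *Tet1* flox/+ mice with a line that expresses Cre recombinase in the thyroid, and the *Thy-Tet1+/+* controls were wild-type littermates. The recombinase is expressed in thyroid follicular epithelial cells. Whether the controls carried Cre alone, how much surrounding tissue was taken with the gland, and the feeding state of the mice were not given in the sources used here.

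White adipocytes store triglyceride in a single large lipid droplet and secrete adipokines, whereas brown adipocytes hold many small droplets and burn fatty acids to make heat through uncoupling protein 1. Both depend on PPARγ, a nuclear receptor that binds DNA with RXR and drives genes of fatty acid uptake, storage and release, and PPARα drives genes of fatty acid oxidation. The thyroid lies next to fat pads of the neck, and adipocytes also occur in its capsule and septa. In a bulk sample, more adipocytes and more RNA of these genes per adipocyte cannot be told apart.

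Total counts ranged from 8867683 in *Thy-Tet1+/+* replicate 1 to 19950898 in *Thy-Tet1+/+* replicate 2, so that a level of 3 counts corresponded to 0.150 to 0.338 CPM (counts per 1000000 reads counted, on TMM-scaled totals where a level is given below). *Tet1* itself had 48, 71 and 62 counts in the *Thy-Tet1+/+* libraries and 172, 162 and 241 counts in those labelled *Thy-Tet1-/-*. The targeted gene was therefore higher under the knockout label (log2 fold change 1.28, adjusted p = 0.101), which goes against that label at the level of the whole transcript. The sample titles read control or treatment with a number, taken here as *Thy-Tet1+/+* and *Thy-Tet1-/-*. By tissue staining, the study reported less TET1 protein in thyroids of the knockout mice. Staining there was also lower for hydroxymethylcytosine, the base that TET1 makes from methylcytosine. The study determined genotypes by PCR of tail DNA, and it also measured TET1 protein in thyroids of both groups by western blot. Counts per gene do not show which exons were read, and directions below are those between libraries as labelled. The thyroid origin was clear from the 10 follicular marker genes. Their summed level was 256800 to 316900 CPM in *Thy-Tet1+/+* and 193900 to 239700 CPM under the knockout label, 2 ranges that did not meet. *Tg* alone held 24.0% to 29.4% of unscaled counts in *Thy-Tet1+/+* and 21.2% to 24.0% under the knockout label. The sum therefore mostly follows this gene. At the limits given below, 1 of the 10 was higher and 2 were lower.

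The promoters of 5 members are shown because these genes carry the main contrasts below. They are *Lep* and *Adipoq*, which encode adipokines, *Ucp1*, the uncoupling protein of brown adipocytes, and *Aqp7* and *Pnpla2*. Only *Aqp7* and *Pnpla2* met the limits whichever library was left out. Each window holds the 250 bases before and the 50 bases after a transcription start in RefSeq (GRCm38.p6), written 5′ to 3′ on the gene's strand. Capitals mark the first match to AGGTCA, the core read by nuclear receptors such as PPARγ with RXR, or to TTGCNNAA, a core of C/EBP sites, searched on both strands (TGACCT is AGGTCA on the other strand). The *Lep* window lies at chr6:29059971-29060270 on the plus strand, *Adipoq* at chr16:23146286-23146585 on the plus strand, *Ucp1* at chr8:83290098-83290397 on the plus strand, *Aqp7* at chr4:41048087-41048386 on the minus strand and *Pnpla2* at chr7:141454938-141455237 on the plus strand.
Lep: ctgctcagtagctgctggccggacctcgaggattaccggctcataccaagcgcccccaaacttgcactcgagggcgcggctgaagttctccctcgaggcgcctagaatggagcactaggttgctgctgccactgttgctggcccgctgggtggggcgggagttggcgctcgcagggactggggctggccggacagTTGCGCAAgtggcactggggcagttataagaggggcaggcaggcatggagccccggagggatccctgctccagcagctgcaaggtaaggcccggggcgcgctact
Adipoq: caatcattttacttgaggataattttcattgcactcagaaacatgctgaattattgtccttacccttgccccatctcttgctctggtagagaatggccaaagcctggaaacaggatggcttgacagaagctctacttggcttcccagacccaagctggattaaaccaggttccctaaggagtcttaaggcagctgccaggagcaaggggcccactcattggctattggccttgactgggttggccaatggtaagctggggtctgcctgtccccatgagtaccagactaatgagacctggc
Ucp1: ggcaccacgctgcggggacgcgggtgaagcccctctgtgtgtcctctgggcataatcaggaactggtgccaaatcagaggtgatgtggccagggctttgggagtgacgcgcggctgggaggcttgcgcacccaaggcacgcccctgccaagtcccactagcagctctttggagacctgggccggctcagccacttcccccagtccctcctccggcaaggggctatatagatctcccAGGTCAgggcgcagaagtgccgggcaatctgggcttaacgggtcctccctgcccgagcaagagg
Aqp7: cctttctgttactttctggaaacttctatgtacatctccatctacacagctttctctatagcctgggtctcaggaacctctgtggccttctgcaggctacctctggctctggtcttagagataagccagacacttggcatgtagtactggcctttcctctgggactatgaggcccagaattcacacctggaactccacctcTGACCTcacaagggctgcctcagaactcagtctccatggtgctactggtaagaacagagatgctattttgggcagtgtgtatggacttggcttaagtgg
Pnpla2: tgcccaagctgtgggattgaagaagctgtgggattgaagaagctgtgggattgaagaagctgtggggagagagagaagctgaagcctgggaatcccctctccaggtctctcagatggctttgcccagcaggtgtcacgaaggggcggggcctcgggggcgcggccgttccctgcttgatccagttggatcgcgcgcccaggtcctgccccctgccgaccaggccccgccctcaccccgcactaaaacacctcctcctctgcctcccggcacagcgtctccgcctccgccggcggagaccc

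The *Lep* window held TTGCGCAA with its first base at -55 from the start, *Ucp1* held AGGTCA at -14, and *Aqp7* held it on the other strand at -49. Neither core occurred in the *Adipoq* and *Pnpla2* windows. Of the 36 members, 26 had RefSeq windows, 35 in all. AGGTCA occurred in 9 of these 35 windows, which belong to 6 genes (*Acadm*, *Aqp7*, *Cd36*, *Plin5*, *Pparg* and *Ucp1*), and in 16.3% of all 32851 promoter windows. TTGCNNAA occurred in 4 of the 35, of 4 genes (*Cidec*, *Lep*, *Plin1* and *Pparg*), and in 10.8% of all windows. The direct repeat AGGTCANAGGTCA, the full PPAR with RXR motif in its strict form, was found in no member and in 0.0396% of all windows. *Angptl4*, *Fabp4*, *Adrb3*, *Cidea*, *Lpl*, *Dgat2*, *Gpd1*, *Cpt1b*, *Elovl3* and *Car3* had no entry.

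Most adipocyte genes had a higher mean level in the libraries labelled *Thy-Tet1-/-* than in *Thy-Tet1+/+*, but the libraries within each group differed so widely that few separated the groups. The fitted difference was positive for 33 members and negative for *Lpl*, *Ppargc1a* and *Prdm16*. The median log2 fold change was 1.27, compared with 0.001 over all tested genes. The 4 largest differences were those of *Adrb3*, *Ucp1*, *Lep* and *Aqp7*, a lipolytic receptor, the thermogenic protein, an adipokine and a glycerol channel.

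At the limits used for these libraries (a log2 fold change beyond 0.585, that is 1.5-fold, and an unadjusted p under 0.05), 11 of 36 members were higher in the libraries labelled *Thy-Tet1-/-* and 0 were lower. Over all tested genes 5.54% were higher and 3.66% were lower at the same limits. The 11 were *Lep*, *Angptl4*, *Cd36*, *Fabp4*, *Aqp7*, *Pnpla2*, *Adrb3*, *Pparg*, *Ppara*, *Ucp1* and *Acadm*. In edgeR's quasi-likelihood test, 0 members reached an adjusted p under 0.05 (Benjamini-Hochberg over all tested genes), against 0.113% of all tested genes. The unadjusted p was under 0.05 for 12 members and for 18.9% of all tested genes. With limma-voom the adjusted count was also 0, whereas DESeq2 called 5 members higher at an adjusted p under 0.05 (*Pnpla2* 0.00157, *Adrb3* 0.00536, *Aqp7* 0.00741, *Cd36* 0.0375 and *Angptl4* 0.0436) and 0 lower, against 4.38% of the genes to which DESeq2 gave an adjusted p.

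In 5 members (*Angptl4*, *Slc27a1*, *Aqp7*, *Pnpla2* and *Ehhadh*) the lowest library labelled *Thy-Tet1-/-* exceeded the highest *Thy-Tet1+/+* library, and the reverse held in 0 members. Over all tested genes, 12.5% were higher without overlap in this way. A non-overlapping pattern was thus about as common among the members as among genes at large, whereas the count at the limits was larger than the background. Because the members were chosen with earlier results of these data known, this excess is a description and not a test. These counts hung on single libraries. Without *Thy-Tet1-/-* replicate 1, 2 members (*Aqp7* and *Pnpla2*) were higher at the limits, close to the 3.97% of all genes tested in that fit. Without *Thy-Tet1+/+* replicate 3 there were 3 (5.51% of all genes), and without *Thy-Tet1+/+* replicate 2 there were 4 (4.95% of all genes). Without *Thy-Tet1+/+* replicate 1 (5.97% of all genes) or without *Thy-Tet1-/-* replicate 3 (5.05% of all genes) there were 24.

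Most members shared an order of libraries within each group. The counts of order in this paragraph were not made over all tested genes. No background share stands beside them, and whether the order is particular to the members was not tested. The highest level was in *Thy-Tet1-/-* replicate 1 for 32 members and in *Thy-Tet1+/+* replicate 1 for the other 4, and the lowest was in *Thy-Tet1+/+* replicate 3 for 21 and in *Thy-Tet1+/+* replicate 2 for 12. Among the libraries labelled *Thy-Tet1-/-*, 33 members had their highest level in replicate 1 and their lowest in replicate 3. Replicate 1 exceeded the other controls for 32 members in *Thy-Tet1+/+*. *Thy-Tet1-/-* replicate 3 was above *Thy-Tet1+/+* replicate 1 for 6 members, while *Thy-Tet1-/-* replicates 1 and 2 were both above all controls for 26.

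**Figure D1:**
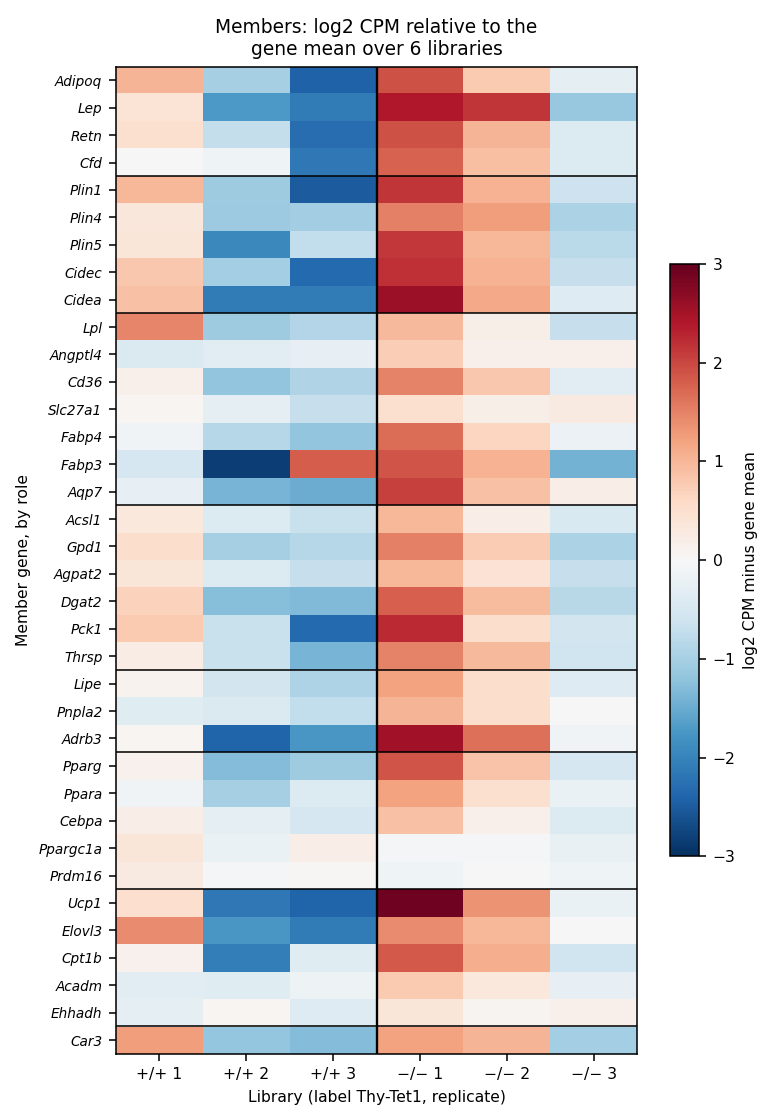
Level of the 36 adipocyte genes in each of the 6 libraries, ordered by role; colour shows log2 CPM minus the gene's mean over the libraries. The column of Thy-Tet1-/- replicate 1 is the highest for 32 genes, and Thy-Tet1+/+ replicate 1 is the highest control for 32 genes.

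Adipokines, the hormones that adipocytes release into blood, had higher means in the libraries labelled *Thy-Tet1-/-*, and 1 of the 4 (*Lep*) met the limits. *Lep* (chr6:29060220-29073877) encodes leptin, which reports fat stores to the brain (gene positions are those of GENCODE M21 on GRCm38). It had 24, 12 and 9 counts (2.85, 0.642 and 0.499 CPM) in *Thy-Tet1+/+* and 208, 159 and 19 counts (11.3, 9.42 and 0.965 CPM) in *Thy-Tet1-/-* replicates 1, 2 and 3. Replicates 1 and 2 labelled *Thy-Tet1-/-* stood above every control, while replicate 3 lay between *Thy-Tet1+/+* replicates 1 and 2. The fitted log2 fold change was 2.53 ± 1.03 (SE; adjusted p = 0.253). The call was lost without *Thy-Tet1+/+* replicate 2 (2.18), *Thy-Tet1+/+* replicate 3 (2.10), *Thy-Tet1-/-* replicate 1 (2.02) or *Thy-Tet1-/-* replicate 2 (2.31).

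*Adipoq*, which encodes adiponectin and marks mature adipocytes, was measured at 67.2, 16.6 and 6.16 CPM in *Thy-Tet1+/+* and 124, 57.5 and 27.4 CPM in the libraries labelled *Thy-Tet1-/-*. The 6 libraries spanned 20.15-fold, and *Thy-Tet1+/+* replicate 1 exceeded *Thy-Tet1-/-* replicates 2 and 3. The difference did not pass (1.24 ± 0.90, 95% interval -0.89 to 3.37, adjusted p = 0.500). *Retn* (resistin) had log2 fold change 1.59 (adjusted p = 0.329) and *Cfd* (adipsin, complement factor D) 1.495 (adjusted p = 0.296), and neither met the limits. As for *Adipoq*, *Thy-Tet1-/-* replicate 1 was highest (34.4 CPM for *Retn* and 300.2 CPM for *Cfd*) and *Thy-Tet1+/+* replicate 3 lowest (1.89 and 19.97 CPM).

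Lipid droplet proteins, which coat and enlarge the droplet, had the highest median difference of the role groups (log2 fold change 1.60), but 0 of 5 met the limits. *Plin1* (perilipin 1, the coat protein that gates lipase access) was at 43.1, 10.3 and 3.83 CPM in *Thy-Tet1+/+* and at 94.8, 44.7 and 14.1 CPM in the libraries labelled *Thy-Tet1-/-*. *Plin4*, another coat protein, was at 42.7, 15.9 and 16.6 CPM against 96.5, 81.1 and 17.5 CPM. In both genes *Thy-Tet1+/+* replicate 1 was above *Thy-Tet1-/-* replicate 3, so the groups overlapped.

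The differences of these 5 genes ranged from 1.39 for *Plin4* to 1.99 for *Cidea*, whose product favours lipid storage in brown fat. *Plin5*, which ties droplets to mitochondria, had 1.72, and *Cidec*, which fuses droplets in white fat, had 1.60. Their adjusted p ranged from 0.317 for *Plin4* and *Plin5* to 0.459 for *Plin1*. *Cidea* spanned 25.6-fold from its lowest library (4.76 CPM in *Thy-Tet1+/+* replicate 2) to its highest (121.6 CPM in *Thy-Tet1-/-* replicate 1).

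Genes of fatty acid and glycerol uptake and binding held 4 of the 11 members at the limits, out of 7. *Aqp7* (chr4:41033074-41048139), a channel through which glycerol leaves fat cells, was measured at 2.49, 1.12 and 1.05 CPM (21, 21 and 19 counts) in *Thy-Tet1+/+* and at 12.4, 5.45 and 3.40 CPM in the libraries labelled *Thy-Tet1-/-*. Every library under the knockout label was above every control. Its log2 fold change was 2.22 ± 0.60 (SE; adjusted p = 0.136), and it met the limits whichever library was left out, with a lowest value of 1.52.

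*Fabp4* (chr3:10204088-10208576), the major fatty acid carrier of the adipocyte cytosol, was at 274, 164 and 129 CPM in *Thy-Tet1+/+* and at 936.5, 462 and 259 CPM in the libraries labelled *Thy-Tet1-/-*. Replicate 3 alone of those labelled as knockout lay within the control range. Its log2 fold change was 1.55 ± 0.50 (adjusted p = 0.179). *Cd36* (chr5:17781690-17888801), a fatty acid translocase also present in endothelium, was at 93.1, 36.7 and 44.6 CPM against 236.5, 147.2 and 65.8 CPM, with replicate 3 again below *Thy-Tet1+/+* replicate 1. Its log2 fold change was 1.37 ± 0.53 (adjusted p = 0.233). Both calls were lost without *Thy-Tet1-/-* replicate 1 (0.91 for *Fabp4* and 0.86 for *Cd36*) and without *Thy-Tet1+/+* replicate 2 (1.46 and 1.13) or 3 (1.33 and 1.21), and that of *Cd36* also without *Thy-Tet1-/-* replicate 2 (1.40).

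*Angptl4* (chr17:33773750-33781830), a secreted inhibitor of lipoprotein lipase and a PPAR target, had the tightest controls of the members at the limits. It was at 12.6, 13.3 and 14.2 CPM in *Thy-Tet1+/+* (13.4 ± 0.787, mean ± SD, n = 3) and at 28.2, 18.7 and 18.7 CPM in the libraries labelled *Thy-Tet1-/-* (21.9 ± 5.50, n = 3). The groups did not overlap. The log2 fold change was 0.71 ± 0.20 (adjusted p = 0.145), and without *Thy-Tet1-/-* replicate 1 it was 0.46, under the limit of 0.585.

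*Slc27a1*, a fatty acid transport protein, did not overlap either, at 185.6, 147.6 and 111.9 CPM against 249, 201 and 216 CPM, and its log2 fold change of 0.58 fell just short of the limit (adjusted p = 0.197). *Lpl*, lipoprotein lipase, which frees fatty acids from circulating lipoproteins, was at 645, 113 and 128 CPM in *Thy-Tet1+/+* and at 461, 265 and 145 CPM in those labelled *Thy-Tet1-/-*. Its level was highest in *Thy-Tet1+/+* replicate 1, and the fitted difference was -0.02 ± 0.75 (adjusted p = 0.993). Without that library the difference was 1.27. *Fabp3*, the fatty acid binding protein of heart, muscle and brown fat, was at 8.31, 1.66 and 41.6 CPM against 43.2, 24.1 and 4.37 CPM, so both groups held high and low libraries (log2 fold change 0.46, adjusted p = 0.870).

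Enzymes of triglyceride synthesis had positive differences throughout, and 0 of 6 met the limits. *Acsl1*, which activates fatty acids to acyl-CoA, was at 206, 125 and 105 CPM in *Thy-Tet1+/+* and at 333, 190 and 120 CPM in those labelled *Thy-Tet1-/-*. *Gpd1*, which makes glycerol 3-phosphate, was at 261, 91.5 and 99.98 CPM against 517, 308 and 94.2 CPM. In both, *Thy-Tet1-/-* replicate 3 was among the control values.

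The log2 fold changes of the group were 0.56 for *Acsl1*, 0.58 for *Agpat2* (an acyltransferase of phosphatidic acid synthesis), 1.03 for *Gpd1*, 1.30 for *Dgat2* (the last acyltransferase step), 1.34 for *Thrsp* (Spot 14, a thyroid hormone responsive lipogenic factor) and 1.43 for *Pck1* (which feeds glyceroneogenesis). Their adjusted p ranged from 0.281 for *Thrsp* to 0.538 for *Agpat2*. *Thrsp* had 164.8, 88.8 and 53.6 CPM in *Thy-Tet1+/+* against 401, 280 and 93.5 CPM, with *Thy-Tet1-/-* replicate 3 below *Thy-Tet1+/+* replicate 1.

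Of the lipolysis genes, which release stored fatty acids, 2 of 3 met the limits. *Pnpla2* (chr7:141455198-141460743) encodes adipose triglyceride lipase, the enzyme of the first step. It was measured at 163.5, 155.0 and 125.8 CPM in *Thy-Tet1+/+* (148 ± 19.8, mean ± SD, n = 3) and at 427.5, 306 and 209.5 CPM in the libraries labelled *Thy-Tet1-/-* (314 ± 109, n = 3). No library under the knockout label fell within the control range. The log2 fold change was 1.09 ± 0.27 (SE; adjusted p = 0.117), ranging from 0.78 to 1.31 as each library was left out, and every one of these met the limits.

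*Adrb3* (chr8:27225776-27250616), the β3-adrenergic receptor through which noradrenaline triggers lipolysis and thermogenesis, had the largest difference of the 36. It was at 6.17, 1.12 and 1.78 CPM in *Thy-Tet1+/+* and at 33.9, 18.7 and 5.49 CPM in those labelled *Thy-Tet1-/-*. Replicate 3 under the knockout label was below *Thy-Tet1+/+* replicate 1. Its log2 fold change was 2.75 ± 0.85 (adjusted p = 0.170), and its call was lost without *Thy-Tet1+/+* replicate 3 (2.47) or *Thy-Tet1-/-* replicate 1 (2.03). *Lipe*, the hormone-sensitive lipase, was at 66.7, 42.1 and 32.6 CPM against 142.8, 89.3 and 47.0 CPM and did not meet the limits (0.99 ± 0.43, adjusted p = 0.279). Exons of *Adrb3* and *Lipe* overlap 839 and 918 bases of genes annotated on the opposite strand (*Gm45470* and *4732471J01Rik*). Those of *Acsl1* and *Gpd1* overlap 1039 and 384 bases of such genes (*Gm45244* and *Gm16537*). None of these partners had an entry in the count table. Overlaps on the opposite strand of 10 to 109 bases occur in *Agpat2*, *Cebpa*, *Elovl3*, *Fabp3*, *Plin4* and *Prdm16*. Whether counting used strand was not given in the sources used here.

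**Figure D2:**
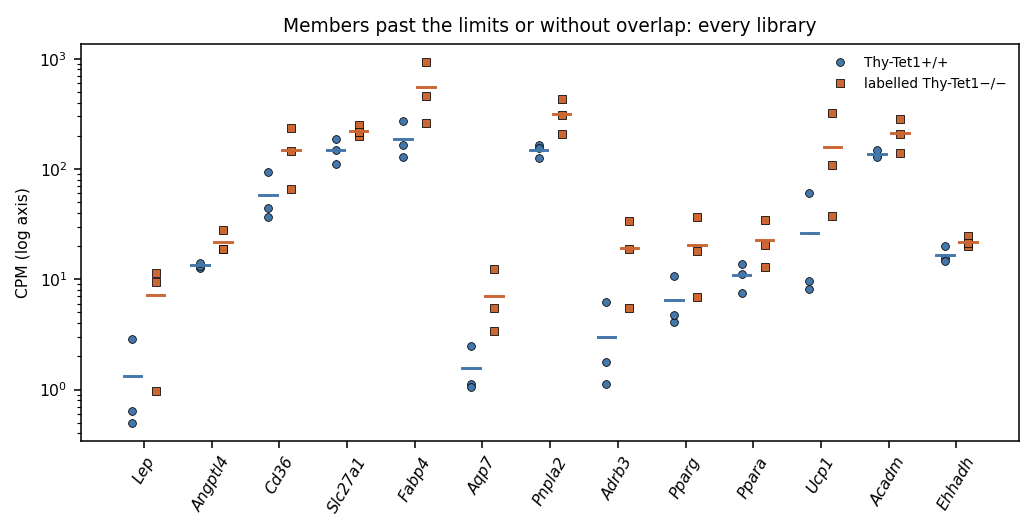
CPM (log axis) in each library for 13 members, comprising the 11 that met the limits and the 2 others whose groups did not overlap; points are libraries and bars are group means. Aqp7, Pnpla2, Angptl4, Slc27a1 and Ehhadh separate the groups, while in the other genes shown at least 1 library labelled Thy-Tet1-/- lies within the control range.

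Of the transcription factors and coactivators, the PPAR receptors met the limits and the others did not (2 of 5). *Pparg* (chr6:115360951-115490399) was at 10.8, 4.06 and 4.72 CPM in *Thy-Tet1+/+* and at 37.0, 18.0 and 6.96 CPM in those labelled *Thy-Tet1-/-*. *Ppara* (chr15:85734983-85802819) was at 13.9, 7.49 and 11.1 CPM against 34.4, 20.6 and 13.01 CPM. In both receptors *Thy-Tet1-/-* replicate 3 was below *Thy-Tet1+/+* replicate 1 and above the other controls.

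The log2 fold change was 1.69 ± 0.65 for *Pparg* (adjusted p = 0.236) and 1.07 ± 0.39 for *Ppara* (adjusted p = 0.214). Without *Thy-Tet1-/-* replicate 1 they were 0.94 and 0.62, without *Thy-Tet1+/+* replicate 2 they were 1.43 and 0.86, and without *Thy-Tet1+/+* replicate 3 they were 1.5 and 1.10, none of which met the limits. The call of *Pparg* was also lost without *Thy-Tet1-/-* replicate 2 (1.79). *Cebpa*, the C/EBP factor that works with PPARγ in adipocytes, had a difference of 0.47 (adjusted p = 0.501).

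*Ppargc1a*, the PGC-1α coactivator of mitochondrial genes, and *Prdm16*, a determinant of brown adipocyte identity, had negative differences, as *Lpl* did, and little spread between libraries. *Ppargc1a* was at 92.5, 62.9 and 82.5 CPM in *Thy-Tet1+/+* and at 69.6, 69.2 and 62.0 CPM in the libraries labelled *Thy-Tet1-/-*. *Prdm16* was at 56.4, 44.7 and 47.4 CPM against 42.8, 46.6 and 42.6 CPM. All 6 libraries lay within 1.49-fold for *Ppargc1a* and 1.32-fold for *Prdm16*, the narrowest ranges of the set, and the differences were -0.24 (adjusted p = 0.449) and -0.17 (adjusted p = 0.505). Both differences were positive, at 0.09 and 0.18, when libraries were scaled to 10 epithelial marker genes. That scaling moved the median of all genes to 0.37.

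Thermogenic and oxidation genes included 2 of 5 members at the limits. *Ucp1* (chr8:83290352-83298452), the uncoupling protein that defines brown adipocytes, was at 60.4, 9.63 and 8.10 CPM in *Thy-Tet1+/+* and at 324, 110 and 37.2 CPM in the libraries labelled *Thy-Tet1-/-*, the widest range of any member (40.0-fold). Replicate 3 under the knockout label was below *Thy-Tet1+/+* replicate 1, and the other 2 were above every control. The log2 fold change was 2.62 ± 1.05 (adjusted p = 0.244), and the call was lost without *Thy-Tet1+/+* replicate 2 (2.21), *Thy-Tet1+/+* replicate 3 (2.18) or *Thy-Tet1-/-* replicate 1 (1.51).

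*Acadm* (chr3:153922357-153944632), the medium-chain acyl-CoA dehydrogenase of mitochondrial β-oxidation, was at 133.7, 128.7 and 149.6 CPM in *Thy-Tet1+/+* against 285, 207 and 139 CPM. *Thy-Tet1-/-* replicate 3 fell within the controls. Its log2 fold change of 0.61 ± 0.25 (adjusted p = 0.254) was just above the limit, and the call was lost on leaving out any library but *Thy-Tet1-/-* replicate 3, down to 0.31 without *Thy-Tet1-/-* replicate 1. *Ehhadh*, a peroxisomal oxidation enzyme, did not overlap (15.5, 19.9 and 14.7 CPM against 24.6, 20.1 and 21.2 CPM), but its log2 fold change was 0.39 (adjusted p = 0.272).

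*Cpt1b*, the muscle and brown fat form of carnitine palmitoyltransferase, was at 20.3, 4.44 and 14.5 CPM against 66.8, 39.6 and 12.2 CPM (log2 fold change 1.61, adjusted p = 0.283). Its exons share 2744 bases on the same strand with *Gm44502*, which had no entry in the count table. *Elovl3*, a fatty acid elongase of brown fat, was near the floor in 2 controls, with 16, 4 and 3 counts against 35, 24 and 14 counts (0.98, adjusted p = 0.634). *Car3*, a carbonic anhydrase abundant in both fat and muscle, was at 689, 130.4 and 118.6 CPM in *Thy-Tet1+/+* against 667, 590 and 142.5 CPM, and its difference of 0.58 did not meet the limits (adjusted p = 0.753).

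**Figure D3:**
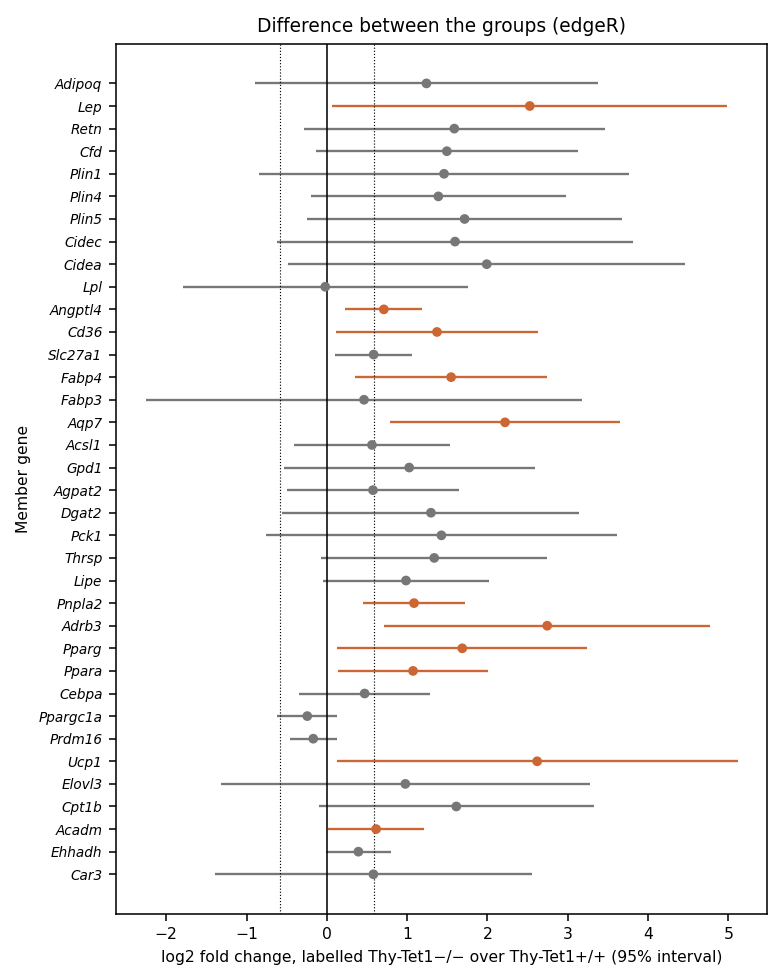
Log2 fold change of each member (libraries labelled Thy-Tet1-/- over Thy-Tet1+/+, edgeR) with its 95% interval; dotted lines mark ±0.585 and orange points the 11 members that met the limits. Intervals exclude 0 for 12 members and are widest for Fabp3, Ucp1, Cidea and Lep.

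Per length of transcript (TPM, transcripts per 1000000 after division by exon length), *Car3* was the most abundant member in *Thy-Tet1+/+* (mean 460 TPM), followed by *Cfd* (287), *Gpd1* (211), *Pnpla2* (201), *Thrsp* (195) and *Fabp4* (174). The SD over controls was 498 TPM for *Car3* and 180 TPM for *Cfd*, so neighbours in this order did not differ beyond their spread. *Elovl3* (1.64 TPM), *Lep* (1.67 TPM) and *Aqp7* (2.28 TPM) were the least abundant. Mean levels of *Ucp1* were 67.3 TPM in *Thy-Tet1+/+* and 421 TPM in those labelled *Thy-Tet1-/-*, and of *Adipoq* 92.0 and 222 TPM.

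Ratios between members within a library were less variable than the levels for some pairs. These pairs were picked with the values known and are given as descriptions. Per length, *Plin1* to *Adipoq* was 0.191, 0.184 and 0.185 in *Thy-Tet1+/+* and 0.227, 0.231 and 0.153 in those labelled *Thy-Tet1-/-*, a range of 1.51-fold, while the CPM of *Plin1* spanned 24.8-fold and that of *Adipoq* 20.15-fold. *Ucp1* to *Adipoq* was 0.759, 0.490 and 1.11 against 2.20, 1.61 and 1.14, and *Ucp1* to *Cidea* was 1.09, 1.38 and 1.14 against 1.81, 1.66 and 1.61.

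Neither *Ucp1* ratio overlapped between the groups, although *Ucp1* to *Adipoq* in *Thy-Tet1-/-* replicate 3 was close to that in *Thy-Tet1+/+* replicate 3. *Cidec* to *Adipoq* (0.467 to 0.760) and *Cidea* to *Cidec* (0.586 to 1.60) overlapped between the groups. *Pparg* to *Adipoq* was 0.0752, 0.115 and 0.358 against 0.139, 0.147 and 0.119, so the receptor did not keep a fixed ratio to this adipocyte gene in *Thy-Tet1+/+* replicate 3. *Cpt1b* to *Plin1* was 5.24 in that library and 0.596 to 1.22 in the other 5.

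**Figure D4:**
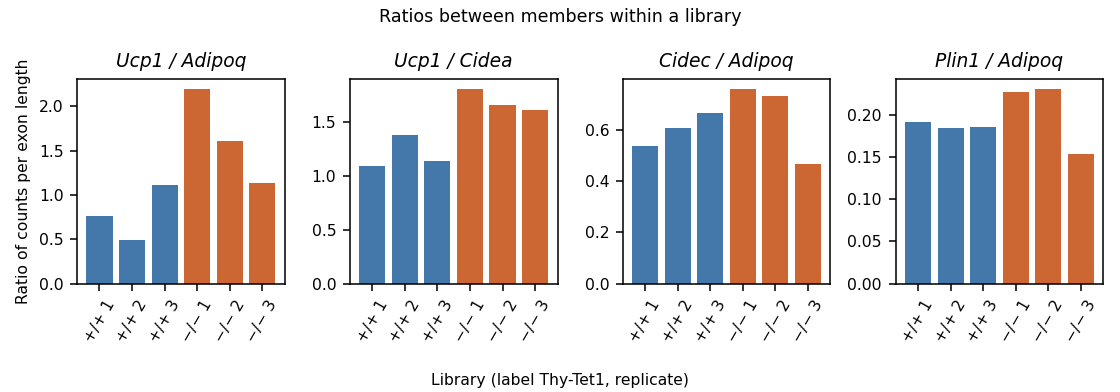
Ratios of adipocyte genes per exon length in each of the 6 libraries, with bars drawn from 0. Ucp1 to Adipoq and Ucp1 to Cidea are higher in all 3 libraries labelled Thy-Tet1-/-, while the other ratios drawn overlap between the groups.

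Summed levels of adipocyte markers were set beside those of other tissues. All white adipocyte markers, and all brown adipocyte markers but *Cox8b*, are members of the set. Their sums therefore restate member levels and do not check the label of the set. The 6 white adipocyte markers summed to 262.9, 128.0 and 37.8 CPM in *Thy-Tet1+/+* and to 691.5, 353 and 133.5 CPM in the libraries labelled *Thy-Tet1-/-*. The 5 brown adipocyte markers summed to 167.2, 66.5 and 85.2 CPM against 572.5, 258.4 and 108.9 CPM. Of this brown sum, *Prdm16*, whose fitted difference was negative, made up 56.4, 44.7 and 47.4 CPM against 42.8, 46.6 and 42.6 CPM. Every marker had counts, and both sums overlapped between the groups, with *Thy-Tet1-/-* replicate 3 below *Thy-Tet1+/+* replicate 1.

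Skeletal muscle markers (10 genes, none at 0 in every library) summed to 6816, 827 and 4191 CPM in *Thy-Tet1+/+* and to 117, 7477 and 41.3 CPM in those labelled *Thy-Tet1-/-*. Muscle markers were thus high in 2 *Thy-Tet1+/+* libraries and 1 labelled *Thy-Tet1-/-*, and they did not share the library order of the adipocyte genes, since *Thy-Tet1-/-* replicate 1 was highest in fat markers and low in muscle. With a muscle score as a covariate, 12 members and 4.17% of all tested genes were higher at the limits, *Ucp1* (3.18) and *Acadm* (0.71) no longer among them. Endothelial markers (7 genes) summed to 482 to 590 CPM and 464 to 650 CPM and macrophage markers (6 genes) to 115 to 449 CPM and 186 to 245 CPM, each overlapping. The follicular sum, made up mostly of *Tg*, was lower in every library labelled *Thy-Tet1-/-*, as given above. Its part in the differences was not tested. When libraries were scaled to 10 epithelial marker genes, each weighted equally, 20 members and 18.5% of all tested genes were higher at the limits.

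**Figure D5:**
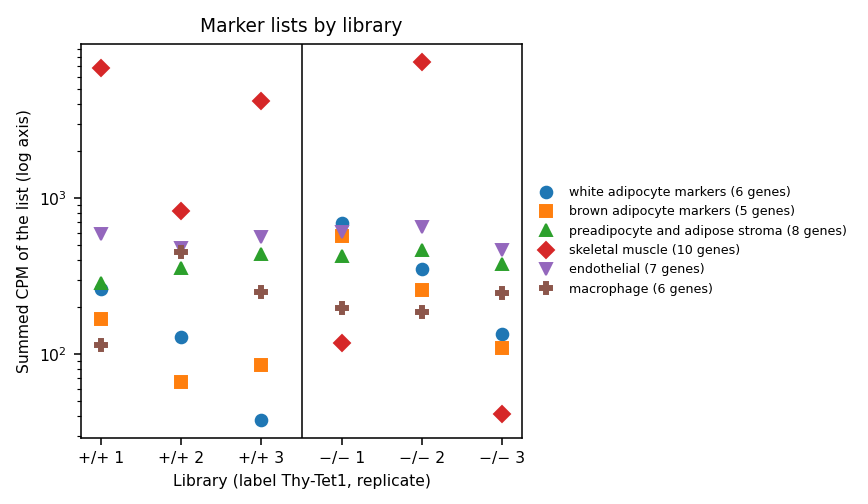
Summed CPM (log axis) of marker gene lists for 6 tissues or cell types in each library, with the 2 groups side by side. White and brown adipocyte sums are highest in Thy-Tet1-/- replicate 1 (691.5 and 572.5 CPM), whereas the muscle sum is highest in Thy-Tet1-/- replicate 2 (7477 CPM).

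Genes of the PPAR signaling pathway outside the set moved in both directions. Of 66 such genes annotated in the deposited table, 41 were tested, and 6 were higher and 4 were lower at the limits, where 5.54% and 3.66% of all tested genes were. The fitted difference was positive for 26 and negative for 15, with a median log2 fold change of 0.06. Among those at the limits, the 5 largest rises were those of *Slc27a2* (2.30, a very long-chain acyl-CoA synthetase), *Fabp5* (1.75, a fatty acid binding protein of epithelia), *Cyp27a1* (0.91, sterol 27-hydroxylase), *Acaa1b* (0.90, a peroxisomal thiolase) and *Gk* (0.86, glycerol kinase). The 4 lower genes included *Acsl3* (-0.88) and *Acsl5* (-0.65), acyl-CoA synthetases, and *Fads2* (-0.79), a fatty acid desaturase.

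*Fabp5* was at 10.9, 7.17 and 4.27 CPM in *Thy-Tet1+/+* and at 19.7, 17.1 and 37.4 CPM in those labelled *Thy-Tet1-/-*. Its highest library was replicate 3, whereas 33 of the members fell from replicate 1 through replicate 2 to replicate 3 under that label. The count of 6 was 1 without *Thy-Tet1-/-* replicate 1 (3.97% of all tested genes) and 3 without *Thy-Tet1+/+* replicate 3 (5.51%). It was 3 with the muscle score as a covariate (4.17%). The count of 4 was 2 without *Thy-Tet1-/-* replicate 3, where 539 of 14284 tested genes were lower.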

How the data were processed

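The 36 members and the gene lists were chosen with earlier results of these data known. RNA was sequenced from thyroid glands in 6 libraries. The authors deposited 1 table of raw read counts per gene; the aligner, the counter, the annotation and use of strand were not given in the sources used here, and mm10 is the build in the submitters' processing notes. No other value columns were present (0). A spreadsheet had turned 27 gene symbols into dates, which were restored, and 4100 genes had no count in any library.

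Counts were filtered with filterByExpr and scaled by TMM, and the groups were compared over all 14143 genes kept with edgeR 4.0.16 (glmQLFit and glmQLFTest) in R 4.3.3, with Benjamini-Hochberg adjustment. Limits were a log2 fold change beyond 0.585 and an unadjusted p under 0.05. The common biological coefficient of variation was 0.327. CPM used TMM library sizes, and TPM used exon lengths of GENCODE M21, known for 94.3% of genes. Counts between libraries differed beyond sampling noise, so none was a duplicate. The sample titles number 3 libraries per group, and the study gives 3 as the number of thyroid glands collected per group. Total counts of 8867683 to 19950898 set a floor of 3 counts at 0.150 to 0.338 CPM, for counting error only. Alternatives were DESeq2 1.42.0, limma-voom (limma 3.58.1), RLE size factors, and no filter or a minimum of 10 counts per library. Others were scaling to 10 epithelial marker genes, a skeletal muscle covariate, a replicate block, and leaving out each library. All members were accounted for; those at the limits or without overlap, and the first genes of each role, were given per library. The fits were tested on simulated data. The values of 1 other gene at the limits are not reported here.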

Additional observations from a re-analysis of the deposited data

How the results depend on the processing

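The number of members higher at the limits was 11 in edgeR with TMM scaling (5.54% of all tested genes) and 17 with DESeq2 (6.28%). It was 20 with scaling to the epithelial marker genes, under which 18.5% of all genes were higher. With each library left out in turn it was 2 to 24, where 3.97% to 5.97% of all genes were higher. With RLE size factors, limma-voom, another count filter or the muscle covariate it was 10 to 14, where 4.17% to 5.86% of all genes were. The number lower was 0 under every alternative. Members with an adjusted p under 0.05 numbered 5 with DESeq2 and 0 under the other alternatives, libraries left out included. Over all genes, the share of called genes that were higher was 60.2%, and 96.0% with the epithelial scaling. Other PPAR pathway genes numbered 6 higher and 4 lower. With libraries left out they were 1 to 9 higher and 2 to 4 lower, with the muscle covariate 3 and 2, and with the epithelial scaling 9 and 0. Other adipocyte genes numbered 12 higher and 2 lower. With libraries left out they were 4 to 20 higher and 1 to 3 lower, and the number lower was 0 with the muscle covariate and 0 with the epithelial scaling. The shares of all genes higher under each setting, given above, stand beside these lists too. Over all tested genes, 504 to 687 were lower with libraries left out, 477 with the muscle covariate and 109 with the epithelial scaling. The cause of these shifts was not tested.

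*Lpl* was positive with RLE (0.002), DESeq2 (0.000), limma-voom (0.28), epithelial scaling (0.18), the muscle covariate (0.56) and the replicate block (0.31), and without *Thy-Tet1+/+* replicate 1 (1.27) or *Thy-Tet1-/-* replicate 2 (0.06) or 3 (0.32), with a range of -0.53 to 1.27 over libraries left out. *Ppargc1a* (0.089) and *Prdm16* (0.18) were positive with epithelial scaling, and *Fabp3* was negative without *Thy-Tet1+/+* replicate 2 (-0.08) or *Thy-Tet1-/-* replicate 1 (-0.30), ranging up to 2.32.

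The samples share only replicate numbers: deviations of same-numbered libraries correlated at -0.167, -0.372 and -0.193. With a replicate block, 22 members were higher (10 of them among the 11) and 16 other adipocyte genes were higher, beside 5.05% of all tested genes. There were still 0 members at an adjusted p under 0.05. *Elovl3*, *Lep* and *Aqp7* had under 20 counts in at least 1 library, which limits their precision.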

Other observations

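Adipocyte genes outside the 36 are given by lists, which were also chosen with earlier results of these data known. Of 19 other white adipocyte genes tested, 3 were higher at the limits and 0 lower (median log2 fold change 0.71): *Acvr1c* (2.41), an activin-type receptor, *Adig* (2.17), adipogenin, and *G0s2* (1.95), the inhibitor of the lipase encoded by *Pnpla2*. *G0s2* was at 15.1, 10.8 and 12.9 CPM in *Thy-Tet1+/+* and at 64.6, 55.6 and 28.6 CPM under the knockout label, so the groups did not overlap. Of 11 other brown adipocyte genes tested, 4 were higher and 1 lower (median 0.86): *Nrg4* (1.99), a secreted factor of brown fat, *Cox8b* (1.81), a cytochrome oxidase subunit, *Ebf2* (1.33), a transcription factor of brown preadipocytes, and *Gk* (0.86), against *Acot2* (-0.81), a mitochondrial thioesterase.

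Of 13 targets of PPARα in fasting, 2 were higher (*Hadhb* 0.85 and *Acadl* 0.80, both of β-oxidation) and 1 was lower (*Pdk4* -0.60, a brake on pyruvate use), with a median of 0.14. Of 8 genes of preadipocytes and adipose stroma, 3 were higher (*Pi16* 0.79, *Pdgfrb* 0.68 and *Pdgfra* 0.66) and 0 lower, with summed levels of 286 to 436 CPM in *Thy-Tet1+/+* and 380 to 468 CPM in the libraries labelled *Thy-Tet1-/-*. Over these lists together, 12 of 51 tested genes were higher and 2 lower, where 5.54% and 3.66% of all tested genes were. Without *Thy-Tet1-/-* replicate 1 the count of 12 was 4 (3.97% of all tested genes), and without *Thy-Tet1-/-* replicate 3 it was 20 (5.05%). In edgeR's quasi-likelihood test 0 of the 51 passed at an adjusted p of 0.05 and 14 at an unadjusted p of 0.05, which 18.9% of all tested genes passed.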
